A study of Homo sapiens with 9 samples.

Results

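Cells sense foreign or displaced RNA through a small set of receptors, and the answer runs through a small set of transcription factors. The 9 genes described here are 3 RNA sensors (IFIH1, DDX58 and TLR3), 2 STAT factors (STAT2 and STAT3) and 4 interferon regulatory factors (IRF1, IRF2, IRF7 and IRF9). They were taken by symbol from a table of 29740 genes, with earlier results of these data known. Of them, 9 of 9 were present and passed the expression filter that kept 14740 genes. The RNA came from HMEC-1, an immortalised line of human dermal microvascular endothelial cells, and was sequenced in 3 libraries of each of 3 groups. TMAO 24H and TMAO 48H were treated for these times with 50 µM trimethylamine-N-oxide (TMAO), a compound that the liver makes from a product of gut microbes, and CTRL was untreated. The study treated the cells in medium of reduced serum and pooled controls of both time-points. TMAO and time in culture therefore cannot be told apart in a difference from CTRL or in one between TMAO 48H and TMAO 24H. All groups are a single cell line, and the labels do not say whether replicates were separate cultures, so the p-values measure the spread between these libraries, which may be technical.

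IFIH1 encodes MDA5 and DDX58 encodes RIG-I, helicases that bind double-stranded RNA in the cytosol and signal through the adaptor MAVS. TLR3 binds double-stranded RNA in endosomes and signals through the adaptor TICAM1. Both routes activate IRF3 and IRF7, which switch on type I interferon genes, and IRF1 and IRF2 bind related DNA elements, IRF1 mostly as an activator and IRF2 mostly as a repressor. Secreted interferon acts on IFNAR1 and IFNAR2 and, through the kinases JAK1 and TYK2, on STAT factors, of which STAT2 joins IRF9 in the complex ISGF3. ISGF3 binds the interferon-stimulated response element (ISRE), while dimers of STAT3 bind a shorter palindrome. Several of the 9 genes are themselves known as interferon-induced genes.

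Total estimated counts per library ranged from 25205756 to 36927373. Ribosomal RNA (4 genes) made up 30.7% of counts in TMAO 24H replicate 1 and 0.968% to 6.73% elsewhere. The summed level of 15 endothelial markers was 94400 to 104600 normalised counts in CTRL, 93620 to 99670 at 24H and 83050 to 90050 at 48H, where 9 of the 15 were lower by the test described below (5 without CTRL replicate 1, 4 without CTRL replicate 2 and 4 without TMAO 48H replicate 2). Of all tested genes, 5.29% were lower and 5.13% higher at 48H against CTRL by the same test. In bulk RNA, fewer cells of a type and less RNA per cell cannot be told apart. The sum of 10 fibroblast and mural markers was 24890 to 27450 in CTRL and 18630 to 20300 at 48H, that of 10 epithelial markers 24050 to 26170 and 19540 to 22430, and that of 10 leukocyte markers 595 to 681 and 675 to 722. Of the 8 fibroblast and mural markers tested, 2 rose at 48H, the contractile genes ACTA2 (log2 fold change 0.74, edgeR adjusted p = 0.00194) and TAGLN (0.33, adjusted p = 0.00429), and 1 fell, the collagen gene COL1A1 (-0.67, adjusted p = 2.17e-05). PTPRC, which defines leukocytes, had at most 3.02 normalised counts in any library, and DCN, a fibroblast gene, was at 0 in all but TMAO 24H replicate 1. Other genes of the same lists were present. The mural marker PDGFRB had 1241 to 1524 normalised counts over all libraries. Of the 10 leukocyte markers, 7 were below 10 normalised counts in every library and 2 passed the expression filter. The epithelial markers EPCAM and CDH1 made up a small part of the epithelial sum, most of which came from other genes of that list. EPCAM was present at 202 to 290 normalised counts in 8 libraries and at 38.0 in TMAO 48H replicate 3. That library also had the lowest level of CDH1 (34.5, against 84.6 to 156 in the others). The part of these library differences in the results was not tested, and log2 fold changes at 48H are therefore also given without TMAO 48H replicate 3.

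The promoters of the 3 sensors are shown because these genes moved together at 48H (values below). RefSeq promoter windows of 300 bases were found for 7 of the 9 genes, DDX58 under its newer symbol RIGI. Both strands were searched for 3 motifs, the ISRE core (GAAA, any 2 bases, GAAA), the STAT dimer core (TTC, any 3 bases, GAA) and an NF-kB core (GGG, any 2 bases, TTTCC), which occur in 3.57%, 7.66% and 1.91% of 35116 promoter windows of this length. The 250 bases before the start site follow for each sensor (GRCh38.p14, coding strand of the gene, matches to the 3 motifs in capitals).
IFIH1 (chr2:162318685-162318934, minus strand): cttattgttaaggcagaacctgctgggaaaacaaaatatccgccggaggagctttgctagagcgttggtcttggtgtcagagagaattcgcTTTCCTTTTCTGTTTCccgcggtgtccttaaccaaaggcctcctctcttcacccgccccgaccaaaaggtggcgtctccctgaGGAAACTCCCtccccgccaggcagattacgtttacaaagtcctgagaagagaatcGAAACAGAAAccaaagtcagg
DDX58 (chr9:32526197-32526446, minus strand): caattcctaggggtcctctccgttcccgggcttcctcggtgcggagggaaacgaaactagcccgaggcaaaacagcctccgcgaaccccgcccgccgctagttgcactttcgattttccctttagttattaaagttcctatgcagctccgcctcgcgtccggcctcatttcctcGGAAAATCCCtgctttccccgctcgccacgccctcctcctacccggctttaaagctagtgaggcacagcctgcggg
TLR3 (chr4:186068906-186069155, plus strand): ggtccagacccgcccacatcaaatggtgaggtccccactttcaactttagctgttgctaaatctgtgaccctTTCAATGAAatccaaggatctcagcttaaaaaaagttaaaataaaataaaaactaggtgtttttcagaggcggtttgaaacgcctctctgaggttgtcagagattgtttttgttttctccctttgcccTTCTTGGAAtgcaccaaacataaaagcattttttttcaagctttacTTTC
The IFIH1 window held 3 ISRE matches, at bases -159 to -150 and -153 to -144, which overlap each other, and at bases -21 to -12 before the start site. It also held an NF-kB match at -76 to -67, and the DDX58 window held 1 match to the same motif at the same distance. TLR3 had STAT dimer matches at -178 to -170 and -50 to -42 and an ISRE match, TTTCACTTTC, that runs across the start site from base -4 to base 6, so that its first 4 letters close the line above. Among the factors, IRF1 and IRF9 had 1 STAT dimer match each, shown here with its surroundings because the factors that bind this motif are among the genes described.
IRF1 (chr5:132490874-132490913, minus strand): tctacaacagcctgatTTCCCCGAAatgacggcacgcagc
IRF9 (chr14:24161185-24161224, plus strand): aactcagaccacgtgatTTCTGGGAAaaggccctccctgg
STAT2 and STAT3 had no match to these letters in their windows. A match describes the sequence and is not evidence of binding in these cells.

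**Figure D1:**
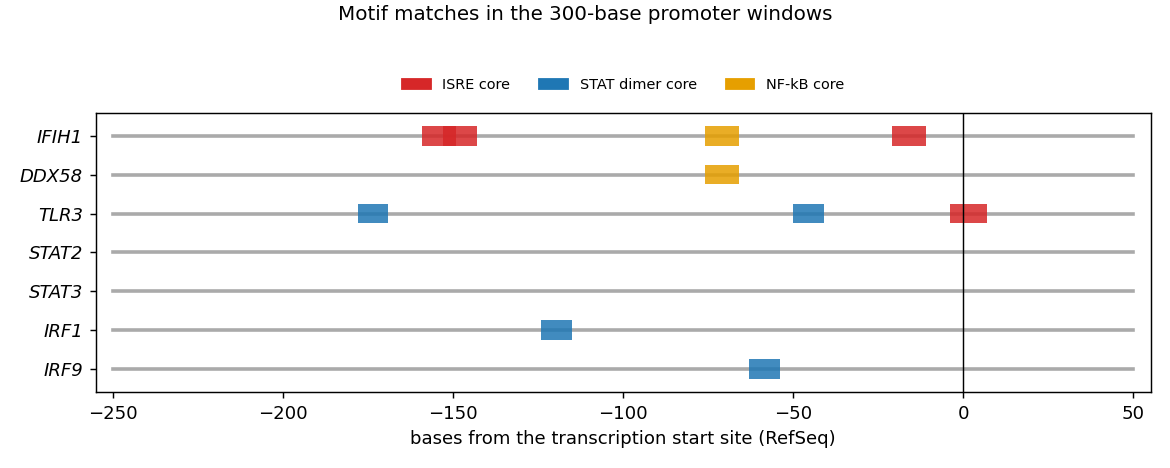
Positions of motif matches in the promoter windows of 7 genes, in bases from the RefSeq start site (vertical line at 0), with grey lines for the 300 bases searched and coloured boxes for matches on either strand. IFIH1 has 3 ISRE boxes, 2 of them overlapping, TLR3 has 1 ISRE and 2 STAT dimer boxes, and the lines of STAT2 and STAT3 are empty.

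IFIH1 had the largest rise of the 9 genes at 48H. Its normalised counts (counts scaled to a common library size by the TMM method) were 299, 337 and 258 in CTRL, 245, 219 and 266 at 24H and 495, 511 and 512 at 48H. The 48H libraries lay above all others and close together, while the 24H and CTRL libraries overlapped, with 2 of the 24H libraries below the lowest control. The rise at 48H was 1.70-fold against CTRL (0.76 ± 0.103 on the log2 scale, SE, edgeR adjusted p = 0.000638) and 2.08-fold against 24H (1.06 ± 0.104, SE, adjusted p = 3.58e-05). At 24H the log2 fold change was -0.29 (95% interval -0.51 to -0.069, unadjusted p = 0.0141 and adjusted p = 0.546 from edgeR), so the difference did not pass over all genes. Without TMAO 48H replicate 3 the log2 fold change at 48H was 0.76 against CTRL and 1.05 against 24H, and both passed.

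DDX58, the second cytosolic sensor, had 639, 602 and 623 normalised counts in CTRL, 662, 571 and 655 at 24H and 828, 842 and 751 at 48H. The CTRL libraries lay within the range of the 24H libraries, and all 48H libraries lay above both. The rise at 48H was smaller than that of IFIH1, 1.30-fold against CTRL (0.38 ± 0.0710 on the log2 scale, SE, edgeR adjusted p = 0.00511) and 1.28-fold against 24H (log2 fold change 0.36, adjusted p = 0.00743), below the 1.4-fold change that the study asked for. Without TMAO 48H replicate 3 the rise was 0.43 against CTRL (adjusted p = 0.00402) and 0.41 against 24H on the log2 scale. At 24H the log2 fold change was 0.019 (95% interval -0.13 to 0.17), and its sign turned in 3 of 6 fits without a library.

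TLR3, the endosomal sensor, had 181, 176 and 206 normalised counts in CTRL, 212, 234 and 202 at 24H and 274, 302 and 296 at 48H. The 48H libraries again lay above all others, and the 24H libraries overlapped the controls by 1 library. TLR3 rose 1.55-fold at 48H against CTRL (0.63 ± 0.101 on the log2 scale, SE, edgeR adjusted p = 0.00194) and 1.34-fold against 24H (0.43 ± 0.100, SE, adjusted p = 0.0193). The second value was lost without TMAO 24H replicate 1 (adjusted p = 0.0607), TMAO 24H replicate 3 (0.0903) or TMAO 48H replicate 2 (0.0835), with log2 fold changes from 0.38 to 0.41. Without TMAO 48H replicate 3 the log2 fold change was 0.62 against CTRL (adjusted p = 0.00551) and 0.41 against 24H (adjusted p = 0.0466). At 24H TLR3 had a log2 fold change of 0.20 (95% interval -0.013 to 0.42, edgeR adjusted p = 0.713), of the opposite sign to that of IFIH1.

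Together, 3 of 3 sensors and 0 of 6 STAT and IRF factors rose at 48H against CTRL by edgeR's test, while 5.13% of the 14740 tested genes were higher by the same rule. IRF9, IRF2, IRF7 and STAT3 lay just above the threshold (edgeR adjusted p = 0.0606 to 0.0682). A difference between sensors and factors was not tested. The factors had log2 fold changes from -0.070 to 0.26 with a median of 0.16, and the sensors from 0.38 to 0.76 with a median of 0.63. With a 1.4-fold change also required, 2 of the 9 genes (IFIH1 and TLR3) were called, against 0.882% of all tested genes. At 48H, 7 of the 9 genes had 3 libraries above all 3 controls, against 14.7% of tested genes, the exceptions being STAT2 and IRF1. At an unadjusted p under 0.05 the same 7 genes were higher, where 25.8% of tested genes passed in either direction. Without TMAO 48H replicate 3 the 6 factors had log2 fold changes at 48H of -0.13 (STAT2), 0.033 (IRF1), 0.15 (IRF2), 0.16 (STAT3), 0.17 (IRF9) and 0.28 (IRF7), and again 0 of them passed. By the adjusted p, 0 of the 9 genes fell, against 5.29% of tested genes.

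**Figure D2:**
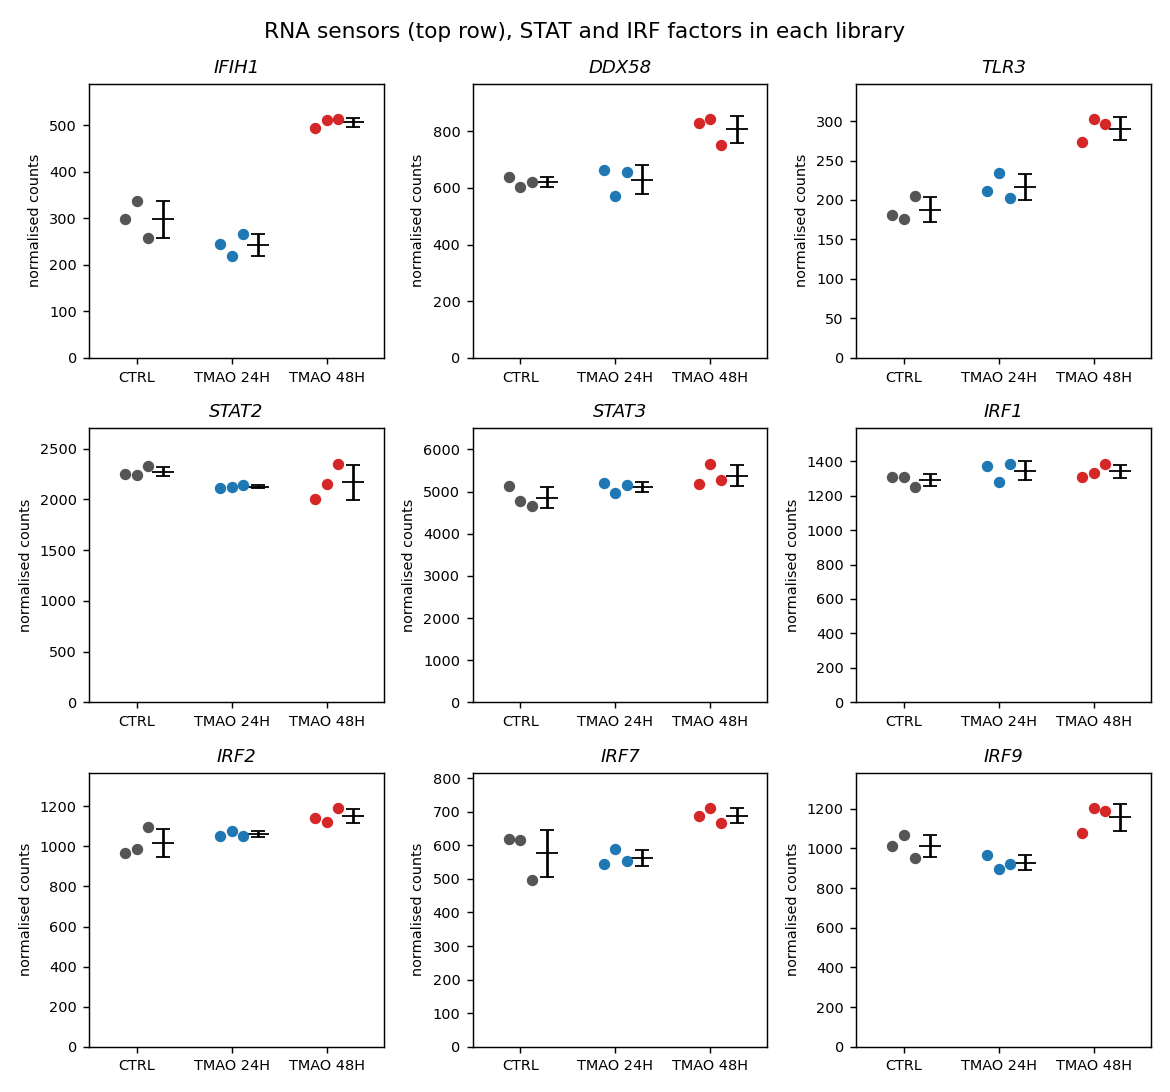
Normalised counts of the 9 genes in each library (points, 3 per group) with the mean and SD of each group (black bars), on axes that start at 0. The 48H libraries lie above all others for the 3 sensors in the top row, and for STAT2 and IRF1 the 48H libraries overlap those of CTRL.

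STAT2, which joins IRF9 in ISGF3, had 2255, 2244 and 2326 normalised counts in CTRL, 2113, 2119 and 2141 at 24H and 2004, 2149 and 2350 at 48H. The 24H libraries lay just below all controls, and the 48H libraries were spread over a range wider than both other groups. STAT2 was the only 1 of the 9 genes with a negative log2 fold change at 48H, -0.070 (95% interval -0.18 to 0.043, edgeR adjusted p = 0.437). At 24H its value was -0.099 (95% interval -0.21 to 0.014, adjusted p = 0.746), and it was the only gene of the 9 whose groups did not overlap at 24H, a separation that 7.52% of tested genes showed in the lower direction.

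STAT3, which mediates the response to IL6 family cytokines, had 5145, 4785 and 4648 normalised counts in CTRL, 5198, 4972 and 5159 at 24H and 5186, 5658 and 5283 at 48H. The 48H libraries lay above the controls, by a narrow margin for the lowest of them. The log2 fold change was 0.15 at 48H (95% interval 0.043 to 0.25, edgeR adjusted p = 0.0682) and 0.073 at 24H (95% interval -0.030 to 0.18). DESeq2 gave STAT3 an adjusted p of 0.0386 at 48H, and edgeR gave 0.0405 without CTRL replicate 1 and 0.0474 without TMAO 48H replicate 1.

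IRF1, which activates many interferon-induced genes, had 1310, 1309 and 1250 normalised counts in CTRL, 1370, 1281 and 1384 at 24H and 1310, 1330 and 1384 at 48H, and the groups overlapped in each comparison. The log2 fold change was 0.060 at 24H (95% interval -0.045 to 0.17) and 0.056 at 48H (95% interval -0.049 to 0.16), which leaves room for changes of up to 1.12-fold in either comparison. IRF1 overlaps the gene C5orf56 on the opposite strand by 1716 exonic bases in GENCODE 29, and whether counting used strand is not given in the sources used here. The 2 genes summed gave log2 fold changes of 0.043 at 24H and 0.053 at 48H.

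IRF2, the counterpart of IRF1, had 966, 987 and 1098 normalised counts in CTRL, 1053, 1077 and 1053 at 24H and 1140, 1122 and 1189 at 48H. The 48H libraries were the highest of the 9, with CTRL replicate 3 close below them. The log2 fold change at 48H was 0.18 (95% interval 0.057 to 0.30, edgeR adjusted p = 0.0610), and 0.23 (adjusted p = 0.0175) without CTRL replicate 3. Against 24H it was 0.12 (adjusted p = 0.246).

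IRF7, the factor that amplifies type I interferon production, had 620.1, 614 and 496 normalised counts in CTRL, 543, 588 and 554 at 24H and 688, 709.8 and 667 at 48H. The 48H libraries lay above all others, and CTRL replicate 3 was the lowest of the 9 libraries. At 48H the log2 fold change was 0.26 against CTRL (95% interval 0.078 to 0.43, edgeR adjusted p = 0.0657) and 0.29 against 24H (SE 0.0823, adjusted p = 0.0466). The second value lay close to the threshold and did not pass with RLE factors (adjusted p = 0.0518), with no expression filter (0.0536), with the replicate number as a block (0.0592) or in 6 of 6 fits without a library (0.0595 to 0.159). At 24H the log2 fold change of IRF7 was -0.038 (95% interval -0.22 to 0.14).

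IRF9, the DNA-binding part of ISGF3, had 1012, 1066 and 953 normalised counts in CTRL, 968, 894 and 919 at 24H and 1077, 1201 and 1190 at 48H. At 24H 2 of the 3 libraries lay below every control, and at 48H all lay above. The log2 fold change was -0.12 at 24H (95% interval -0.26 to 0.0071, edgeR adjusted p = 0.712) and 0.19 at 48H (95% interval 0.062 to 0.33, adjusted p = 0.0606). From 24H to 48H IRF9 rose 1.25-fold (0.32 ± 0.0611 on the log2 scale, SE, edgeR adjusted p = 0.00599), also in 6 of 6 fits without a library. In the comparison with CTRL, IRF9 passed without TMAO 48H replicate 1 (log2 fold change 0.24, adjusted p = 0.0247). In GENCODE 29 a readthrough gene on the same strand contains all 1838 bases of the IRF9 transcript used here. The deposited counts hold no entry under the name of that gene, and the annotation used for counting is not given. The assignment of reads to IRF9 is therefore uncertain.

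The 3 groups can also be read as an order for each gene. For IFIH1, IRF7 and IRF9 the group means ran from 24H, the lowest, through CTRL to 48H, and for DDX58, TLR3, STAT3 and IRF2 from CTRL through 24H to 48H. The lower 2 groups of each order, 24H and CTRL, did not pass the test for any of these 7 genes. For STAT2 the means ran from 24H through 48H to CTRL and for IRF1 from CTRL through 48H to 24H, and no neighbours in these orders passed. Between 48H and 24H, 5 of the 9 genes rose (IFIH1, DDX58, TLR3, IRF9 and IRF7), against 3.77% of all tested genes in that direction, 6 had libraries above all of those at 24H (IRF2 in addition), against 14.7% of tested genes, and only IFIH1 also passed a 1.4-fold change, against 0.862% of tested genes. All comparisons with CTRL share the same 3 control libraries. At 24H against CTRL, 0 of the 9 genes passed edgeR's test or DESeq2, and 1 (IFIH1, lower) had an unadjusted p under 0.05, against 0.095% and 7.24% of all tested genes.

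**Figure D3:**
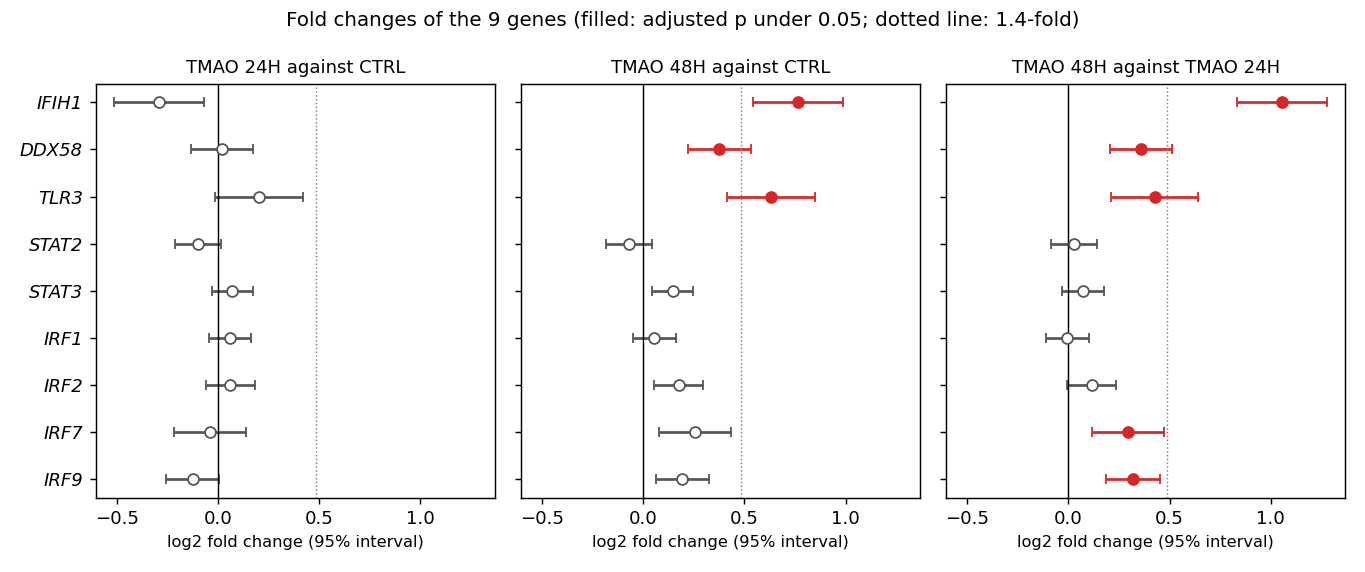
Log2 fold changes of the 9 genes with 95% intervals in the 3 comparisons, filled red where the adjusted p from edgeR was under 0.05, with a dotted line at 1.4-fold. The left panel has 0 filled points, the middle panel 3 (the sensors) and the right panel 5.

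Levels were compared between genes per kilobase of the longest coding transcript of GENCODE 29, which may not be the transcript that these cells use. In CTRL the STAT factors were highest, with 963 ± 50.9 (SD, n = 3) normalised counts per kilobase for STAT3 and 698 ± 13.8 (SD, n = 3) for STAT2. The IRF factors followed, from 549.8 ± 30.8 (SD, n = 3) for IRF9 and 442 ± 30.9 (SD, n = 3) for IRF2 to 360.4 ± 9.58 (SD, n = 3) for IRF1 and 281 ± 34.2 (SD, n = 3) for IRF7. The sensors were the least abundant, with 143 ± 4.18 (SD, n = 3) for DDX58, 82.8 ± 10.9 (SD, n = 3) for IFIH1 and 31.2 ± 2.61 (SD, n = 3) for TLR3. At 48H the level of IFIH1 per kilobase, 141 ± 2.69 (SD, n = 3), was close to that of DDX58 in CTRL, and TLR3 remained the lowest of the 9, at 48.3 ± 2.49 (SD, n = 3).

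Genes around these 9 in the pathway were described from 8 further lists. Their counts at 48H are read against the 5.13% of all tested genes that rose and the 5.29% that fell. Of 21 interferon genes, the ligands that act on this pathway, 18 had 0 counts in every library, IFNB1 among them, and the summed level of all 21 was 8.96 to 18.5 normalised counts in CTRL, 5.44 to 6.27 at 24H and 6.98 to 14.96 at 48H. Most of this was IFNE, the 1 interferon gene that passed the expression filter, and it passed the test in 0 comparisons. The 18 genes at 0 were not detectable at this depth, where 0 counts allow up to 3 per library.

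Of the 9 receptor chains and JAK kinases, 3 were higher and 0 lower at 48H against CTRL (median log2 fold change 0.076). These were IFNAR1, a chain of the type I interferon receptor (log2 fold change 0.16, edgeR adjusted p = 0.0314), IL10RB, a chain shared by the receptors of IL10 and of type III interferons (0.20, adjusted p = 0.0357), and JAK2 (0.28, adjusted p = 0.0146). The count was 1 without CTRL replicate 2, CTRL replicate 3 or TMAO 48H replicate 3 and 0 without TMAO 48H replicate 2. The partner chain IFNAR2 (log2 fold change 0.032, adjusted p = 0.763) and the kinases JAK1 (-0.052, adjusted p = 0.607) and TYK2 (-0.090, adjusted p = 0.306) did not pass.

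Among the 13 other nucleic acid sensors, 8 were tested, 2 rose and 0 fell at 48H (median log2 fold change 0.29). DDX60, a helicase linked to RIG-I signalling (log2 fold change 0.49, edgeR adjusted p = 0.000364), and EIF2AK2, the kinase PKR that binds double-stranded RNA (0.44, adjusted p = 0.00133), were the genes that rose. DHX58, the third RIG-I-like receptor, was low, at 34.4 ± 2.36 (SD, n = 3) normalised counts in CTRL and 49.0 ± 2.62 (SD, n = 3) at 48H, and did not pass (log2 fold change 0.51, adjusted p = 0.0958). TLR7 and TLR8, endosomal sensors of single-stranded RNA, were at 0 in every library.

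Of 15 adaptors and kinases that relay the signals of the sensors, 1 rose and 0 fell at 48H (median log2 fold change 0.033), and TRIM25, a ubiquitin ligase that acts on RIG-I, was the one that rose (log2 fold change 0.21, edgeR adjusted p = 0.0175). This share lay near that of all tested genes, and the count was 0 without CTRL replicate 2 or TMAO 48H replicate 2 and 2 without TMAO 48H replicate 1. MAVS (-0.062, adjusted p = 0.421), TICAM1 (-0.054, adjusted p = 0.667) and TBK1 (0.056, adjusted p = 0.461) did not pass at 48H. IRF3, the factor activated by TBK1, had a log2 fold change of -0.16 (adjusted p = 0.0924), and 0 of the 4 other IRF genes tested passed. Of 20 inhibitors, 2 rose and 0 fell at 48H (against 5.13% and 5.29% of all tested genes), CYLD, a deubiquitinase (0.28, adjusted p = 0.00294), and PTPN11, a phosphatase (0.22, adjusted p = 0.00452). The feedback inhibitors USP18 (0.31, adjusted p = 0.0546), SOCS3 (0.24, adjusted p = 0.139) and SOCS1 (-0.36, adjusted p = 0.604) did not pass.

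Genes known as targets of these factors were counted by list at 48H. Of 35 targets of ISGF3, 30 rose and 0 fell against CTRL (median log2 fold change 0.67), while 5.13% of all tested genes rose and their median was 0.0040. Without single libraries 26 to 32 of the 35 passed. At 24H 0 of the 35 passed, with a median of -0.11. MX1, a GTPase with antiviral activity, had 596, 559 and 387 normalised counts in CTRL, 391, 329 and 379 at 24H and 1417, 1597 and 1118 at 48H. It rose at 48H with a log2 fold change of 1.42. IFI44L, an interferon-induced gene, had 43.8, 42.8 and 26.2 normalised counts in CTRL, 28.01, 19.96 and 24.2 at 24H and 144, 139 and 96.7 at 48H, a log2 fold change of 1.75. For both genes the 48H libraries lay far above all others. CTRL replicate 3, the lowest control for MX1, was also the lowest control for IFIH1, IRF7, IRF9, STAT3 and IRF1. The same library was the highest control for STAT2, IRF2 and TLR3 and lay between the other controls for DDX58. Of 17 tested targets of STAT3, 2 rose, the growth regulator MYC (0.23, adjusted p = 0.0192) and the survival gene BCL2L1 (0.15, adjusted p = 0.0295), and 1 fell, the protease inhibitor TIMP1 (-0.22, adjusted p = 0.00437). The median over the STAT3 targets was 0.056 at 48H, and 1 of them passed without CTRL replicate 1 or TMAO 48H replicate 3. At 24H, 0 genes of the 8 lists passed except 2 STAT3 targets that fell, FOS (-1.14, adjusted p = 0.00301) and MYC (-0.33, adjusted p = 0.0494), against 0.095% of all tested genes, and FOS is named after its values were seen. Without TMAO 24H replicate 2, 0 of the STAT3 targets passed at 24H, and without any other single library 1 did.

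**Figure D4:**
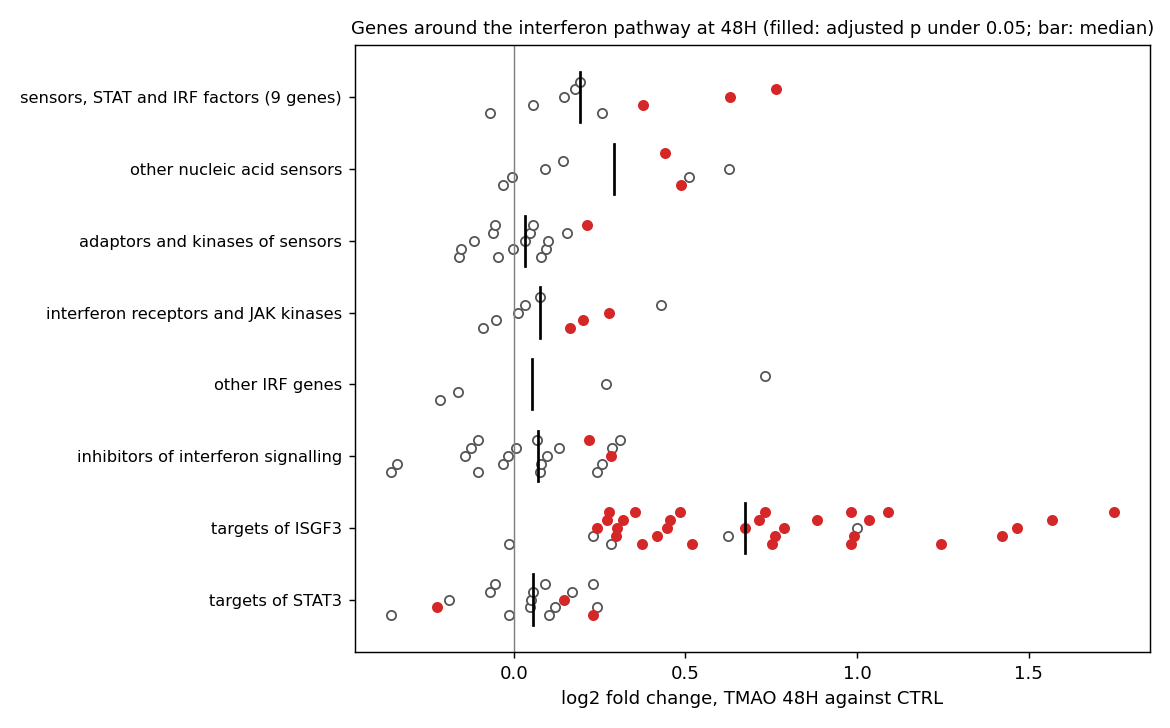
Log2 fold change at 48H against CTRL of every tested gene in the 9 described genes and in 7 lists around them, 1 point per gene, filled red where the adjusted p from edgeR was under 0.05, with the median of each list as a black bar. The targets of ISGF3 reach furthest to the right (median 0.67), and the medians of adaptors, receptors, inhibitors and STAT3 targets lie between 0.033 and 0.076.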

How the data were processed

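RNA of 9 HMEC-1 libraries was sequenced. The authors processed reads with the nf-core RNAseq pipeline version 3.6, and the processing notes name Trim Galore. The authors deposited estimated counts per gene symbol from this pipeline, without normalisation, of which 14.7% are not whole numbers. The quantifier, build and annotation are not given in the sources used here, so coordinates are given only for RefSeq promoters.

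Groups and replicate numbers came from the labels. Counts were rounded and analysed in R 4.3.3 with edgeR 4.0.16 (filterByExpr, TMM, quasi-likelihood fit of all 9 libraries with legacy = FALSE, Benjamini-Hochberg adjustment over 14740 genes). A gene passed, rose or fell at an adjusted p under 0.05. Standard errors and 95% intervals were derived from the F statistic. Normalised counts are counts scaled to a mean effective library size of 30416647. An exact permutation test of 3 against 3 libraries cannot go below p = 0.1, so p-values come from the edgeR model. The biological coefficient of variation was 0.0744. Estimated counts carry counting error beside the spread between libraries.

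The 9 genes, the lists and the alternatives were chosen with earlier results of these data known. From the lists, the text names the 2 largest rises and 2 largest falls at 48H among passing genes with a mean of at least 50 normalised counts, and genes that signal directly with the 9 genes. For each of the 9 genes, up to 3 genes with the most similar pattern (Pearson correlation of log2 CPM) were named. IFNE, DCN, PDGFRB, ACTA2, TAGLN, COL1A1, PTPRC, EPCAM, CDH1, TLR7 and TLR8 were named after their values were seen.

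Alternatives were DESeq2 1.42.0, RLE factors, 2 other filters, the older edgeR fit, only the 2 groups compared, a replicate block, a 1.4-fold threshold, removal of ribosomal RNA genes and leaving out each library. Withheld items and the lists that rest on them are not reported here. The sum of IRF1 and C5orf56 was added after the data were seen. On simulated data for TMAO 48H against CTRL with 14740 genes, 78 of 100 genes changed 1.4-fold and 97 of 100 changed 2-fold were recovered, with 7 false calls. The changed genes had a mean of at least 50 normalised counts. Smaller changes, lower genes and the ribosomal RNA share of single libraries were not simulated.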

Additional observations from a re-analysis of the deposited data

Results flagged for a closer look

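TMAO 48H and TMAO 24H differ in treatment time and in time in culture, which cannot be told apart here. By edgeR's direct test of 48H against 24H, with Benjamini-Hochberg adjustment over all genes, 3.77% of tested genes were higher at 48H. By the same test 5 of the 9 genes differed between these groups, all in that direction. The log2 fold change of this difference was 1.06 for IFIH1 (adjusted p = 3.58e-05), 0.43 for TLR3 (adjusted p = 0.0193), 0.36 for DDX58 (adjusted p = 0.00743), 0.32 for IRF9 (adjusted p = 0.00599) and 0.29 for IRF7 (adjusted p = 0.0466). For each of the 5 genes, all 3 libraries at 48H lay above all 3 at 24H, a separation that 14.7% of tested genes showed in this direction. IFIH1, IRF7 and IRF9 had negative log2 fold changes at 24H (-0.29, -0.038 and -0.12) and positive ones at 48H, and 0 of these 3 values at 24H passed. The share of ribosomal RNA in TMAO 24H replicate 1 was 30.7%. Without that library the differences of IFIH1, DDX58 and IRF9 passed, and those of TLR3 (adjusted p = 0.0607) and IRF7 (adjusted p = 0.142) did not.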

How the results depend on the processing

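Of the 9 genes, 0 passed at 24H in every alternative run, and IFIH1, DDX58 and TLR3 passed at 48H against CTRL in 6 of 6 fits without a library and in every other alternative, except that DDX58 fell short where 1.4-fold was required. The number passing ranged over fits without a library from 3 to 5 at 48H against CTRL, reaching 5 without TMAO 48H replicate 1 (STAT3 and IRF9 added), and from 3 to 4 between 48H and 24H, with 3 without TMAO 24H replicate 1, TMAO 24H replicate 3 or TMAO 48H replicate 2. Requiring 1.4-fold left 1 gene between 48H and 24H. Over all genes at 24H, 14 passed in the fit reported, 55 with DESeq2, 22 with only the 2 groups compared, 7 with 1.4-fold and 0 to 12 without a library. At 48H against CTRL, 1536 passed, 981 with only the 2 groups compared, 265 with 1.4-fold and 700 to 1594 without a library. Between 48H and 24H, 1109 passed, 251 with 1.4-fold and 558 to 1052 without a library. The cause of these differences was not tested. The replicate block gave 1, 944 and 730 genes in the 3 comparisons. Among the 9 genes it changed only the call of IRF7 between 48H and 24H (adjusted p = 0.0592). The labels give same-numbered libraries only a shared number, and whether these shared a batch or culture was not tested. Their deviations from the group means correlated at -0.12 to 0.091 over 9 pairs, against -0.0996 to 0.159 over 18 other pairs.

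Signs turned only for small values. Without a library, the log2 fold change ranged at 24H from -0.13 to 0.017 for IRF7 and from -0.017 to 0.085 for DDX58, and between 48H and 24H from -0.032 to 0.083 for STAT2 and from -0.038 to 0.017 for IRF1, which was 0.010 when summed with C5orf56. Of the counts for the other lists, 469 lay within 1.5 times the reported count and 71 did not. Equal counts without any passing gene were taken as within this limit. At 24H no list but that of STAT3 targets had a passing gene in the fit reported. With Spearman correlation, 5 of the 27 most similar genes were again among the closest 3. With 3 libraries a group, changes of 1.4-fold were recovered less often in the simulation than those of 2-fold.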

Other observations

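The genes whose pattern over the 9 libraries was most like that of each of the 9 genes were found by Pearson correlation of log2 CPM among all tested genes, as a description, since the libraries fall into 3 groups of unlike treatment and differ in depth. For IFIH1 they were AMOTL2 (r = 0.987), GIMAP8 (r = 0.987) and TXNRD1 (r = 0.984), and these passed at 48H against CTRL with log2 fold changes of 0.21, 0.40 and 0.18. For TLR3 they were LRRC58 (r = 0.984), KITLG (r = 0.975) and FOPNL (r = 0.973), which also passed at 48H. These genes were picked over the same 9 libraries, in which IFIH1 and TLR3 were highest at 48H. That they passed at 48H follows largely from this choice and is not separate evidence. The genes most like DDX58 were PSTPIP2, CLGN and ZMYM6NB (r = 0.9596 to 0.968), of which CLGN had the largest change at 48H (log2 fold change 0.76). For IRF9 they were PTPRS, DDAH1 and EEF1A2 (r = 0.9702 to 0.979), for IRF7 PARD3, OPTN and ERP44 (r = 0.969 to 0.9795), and for IRF2 PRRG4, ZBTB34 and NUAK2 (r = 0.947 to 0.967). IRF1 was most like KANK1, R3HCC1L and DHX9 (r = 0.913 to 0.966), STAT3 most like ITSN2, RNF20 and ASCC3 (r = 0.959 to 0.972) and STAT2 most like AFG3L1P and MAN2C1 (r = 0.947 to 0.952).

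Among the 9 genes themselves, 29 of 36 pairs had a positive correlation over the 9 libraries, with a median of 0.56. The share over all pairs of tested genes was not computed. The pairs are not independent, and a difference between groups that genes share raises these values. The highest was that of IRF9 with IFIH1 (r = 0.938), followed by IRF2 with TLR3 (r = 0.899) and DDX58 with IFIH1 (r = 0.878), and the lowest that of STAT2 with STAT3 (r = -0.34).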
